A study of Mus musculus with 2 samples.

Results

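Milk protein genes were examined in RNA sequencing of cells of the inbred mouse strain FVB, taken from breast tumours. The set holds 10 genes chosen by name, all of them present among the 22558 genes of the tables: the caseins Csn1s1, Csn1s2a, Csn1s2b, Csn2 and Csn3, the whey genes Lalba, Wap and Expi, the milk mucin Glycam1 and the milk fat globule protein Mfge8. Of 2 libraries, the first came from tumour-initiating cells (TIC) and the second from non-tumorigenic cells (NTC). Tumours were dissociated and the cells purified at once by flow cytometry, with no treatment in either group. The sources used here do not give the tumour model, the age of the mice, the sort gate or the number of tumours behind each library. Each group had 1 library, so no difference below has a replicate check, an SD or a p-value, and each holds for these libraries rather than for the kinds of cell.

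Caseins are secreted phosphoproteins that carry calcium and phosphate into milk as micelles. The calcium-sensitive caseins (alpha s1, alpha s2 and beta) form the body of the micelle, and kappa-casein, the product of Csn3, coats its surface and keeps it in suspension. Whey proteins stay in solution. Prolactin, glucocorticoid and insulin switch these genes on in the alveolar cells of the luminal layer. Of these, prolactin acts through the prolactin receptor, the kinase JAK2 and the transcription factor STAT5, which binds a short palindrome in milk gene promoters.

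The promoters are shown first, and their part in the differences below was not tested. For 8 of the 10 genes the RefSeq table of build GRCm38.p6 gave a window of 300 bases, running from 250 bases before the transcription start to 50 after it, and none was given for Csn1s2b and Csn3. The sequences are those of the reference genome and not of the FVB tumours. They are printed 5′ to 3′ on the strand of the gene, with the first transcribed base as +1. Capitals mark any match to 6 short motifs: the STAT5 palindrome TTCNNNGAA, the C/EBP core TTGCNNAA, the glucocorticoid receptor motif AGAACA, the octamer ATGCAAAT and the NF1 motif TTGGCA, each on both strands, and the TATA box TATAAA on the strand of the gene. The windows below are the 4 that hold the STAT5 palindrome, that of Expi, which had the lowest ratio of TIC to NTC, and that of Mfge8, which had the ratio nearest to 1.
Csn1s1, chr5:87665958-87666257, plus strand: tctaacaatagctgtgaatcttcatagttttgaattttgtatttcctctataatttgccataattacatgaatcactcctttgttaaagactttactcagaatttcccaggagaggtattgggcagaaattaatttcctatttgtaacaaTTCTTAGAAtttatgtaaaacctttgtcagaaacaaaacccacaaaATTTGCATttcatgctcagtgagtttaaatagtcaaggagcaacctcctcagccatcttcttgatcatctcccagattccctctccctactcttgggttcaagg
Csn2, chr5:87699376-87699675, minus strand: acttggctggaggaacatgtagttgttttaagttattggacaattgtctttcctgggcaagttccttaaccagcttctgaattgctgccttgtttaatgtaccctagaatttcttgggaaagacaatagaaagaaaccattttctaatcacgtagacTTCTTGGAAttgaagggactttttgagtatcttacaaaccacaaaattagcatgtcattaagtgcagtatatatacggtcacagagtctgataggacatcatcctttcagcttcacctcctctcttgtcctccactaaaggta
Csn1s2a, chr5:87774200-87774499, plus strand: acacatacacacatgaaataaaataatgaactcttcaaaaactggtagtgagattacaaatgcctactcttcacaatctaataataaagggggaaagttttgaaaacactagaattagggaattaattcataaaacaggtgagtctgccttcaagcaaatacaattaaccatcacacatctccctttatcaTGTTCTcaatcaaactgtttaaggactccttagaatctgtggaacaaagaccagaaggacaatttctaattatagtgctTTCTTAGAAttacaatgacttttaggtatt
Glycam1, chr15:103565032-103565331, minus strand: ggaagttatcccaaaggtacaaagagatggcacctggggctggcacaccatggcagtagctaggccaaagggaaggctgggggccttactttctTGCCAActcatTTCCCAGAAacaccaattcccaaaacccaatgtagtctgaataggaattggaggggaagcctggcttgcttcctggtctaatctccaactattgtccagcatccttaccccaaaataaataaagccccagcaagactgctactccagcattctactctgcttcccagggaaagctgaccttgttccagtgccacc
Expi (Wfdc18 in RefSeq), chr11:83708754-83709053, plus strand: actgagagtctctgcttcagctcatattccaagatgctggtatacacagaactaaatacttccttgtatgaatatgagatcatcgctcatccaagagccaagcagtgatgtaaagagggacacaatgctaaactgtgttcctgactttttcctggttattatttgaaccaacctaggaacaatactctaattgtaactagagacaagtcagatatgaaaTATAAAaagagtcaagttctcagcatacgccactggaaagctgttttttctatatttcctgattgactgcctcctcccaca
Mfge8, chr7:79149011-79149310, minus strand: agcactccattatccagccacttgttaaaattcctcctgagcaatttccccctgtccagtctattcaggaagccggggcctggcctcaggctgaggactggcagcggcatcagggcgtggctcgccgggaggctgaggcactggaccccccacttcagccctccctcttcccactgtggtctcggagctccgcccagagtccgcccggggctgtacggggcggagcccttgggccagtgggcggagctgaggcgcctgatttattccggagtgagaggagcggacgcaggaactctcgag

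The STAT5 palindrome was found in 4 of the 8 windows, and in 8.3% of all 32851 promoter windows of the same length. In Csn1s1 it read TTCTTAGAA at positions -100 to -92, followed by an octamer on the opposite strand at -54 to -47. Csn2 held TTCTTGGAA at -93 to -85, so the sites of both caseins lay at a like distance from the start. In Glycam1 the palindrome was TTCCCAGAA at -145 to -137, beside an NF1 motif on the opposite strand at -156 to -151. The match in Csn1s2a, TTCTTAGAA at positions 21 to 29, lay after the start, and this window also held the glucocorticoid receptor motif on the opposite strand at -59 to -54. Expi held a TATA box at -31 to -26, which 8.32% of all windows hold. Lalba held an NF1 motif at -120 to -115, and the windows of Wap and Mfge8 held none of the 6 motifs. No window held the C/EBP core, against 10.8% of all windows. The motifs of the glucocorticoid receptor and NF1 occurred in 19% and 14.1% of all windows, and the octamer in 1.74%. These are letter matches in short windows, and binding was not measured. The STAT5 palindrome is known from milk gene promoters, so its count does not serve as a test. The shares over all windows were not matched for base composition. The casein windows were rich in A and T, with a GC content of 32.3% in Csn1s2a, 35.3% in Csn1s1 and 38.7% in Csn2, against 64.3% in Mfge8 and a median of 52.7% over all windows.

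Levels are given as FPKM, fragments scaled to transcript length and to the fragments mapped in the library, which allows a rough comparison between genes. The RNA was amplified from a small input, which can shift levels of genes against each other by their length and base composition. Ratios are log2((TIC + 1)/(NTC + 1)) of FPKM values, and the added 1 shrinks the ratio of a low gene. A gene is called measured at a mean of at least 1 FPKM over both libraries, which 12004 genes reached. Depth was estimated from the steps between low values of short receptor genes, and came to roughly 21 M fragments for TIC and 21.6 M for NTC.

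All 10 milk protein genes had lower values in TIC than in NTC, and without Mfge8 their summed level was 64.4 FPKM in TIC against 7888 FPKM in NTC. That is 0.0193% of the FPKM of all genes in TIC and 2.10% in NTC. Of the 10, 9 were measured, and each of the 9 was at least 2-fold lower in TIC, where 13.8% of all measured genes were. At least 16-fold lower were 8 of them, against 1.09% of all measured genes, and none was at least 2-fold higher, against 14.6%. Because 1 is added, a low gene cannot reach 16-fold, so the 1.09% is a share of many genes that could not count. Among 526 genes whose mean reached 100 FPKM, the share was 4.75%, or 25 genes. Of those 526, 6 were milk protein genes, and 5 of the 6 were among the 25. The 9 measured milk protein genes had a median log2 ratio of -5.51, and that of all measured genes was -0.16. Lalba, Wap and Glycam1 were below 1 FPKM in TIC and counted as measured through NTC alone, so they had to differ. The ratio of Lalba, listed at 0 in TIC, is set by the added 1. With 5 FPKM added instead, the log2 ratios were -2.61 for Lalba, -2.26 for Wap and -2.53 for Glycam1, short of 16-fold. Their place among the 8 thus depends on the value added. These counts therefore describe the genes without serving as a test. The 6 genes with at least 1 FPKM in both libraries had a median of -6.30. In bulk RNA, fewer cells that make a transcript and less of it per cell cannot be told apart.

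**Figure D1:**
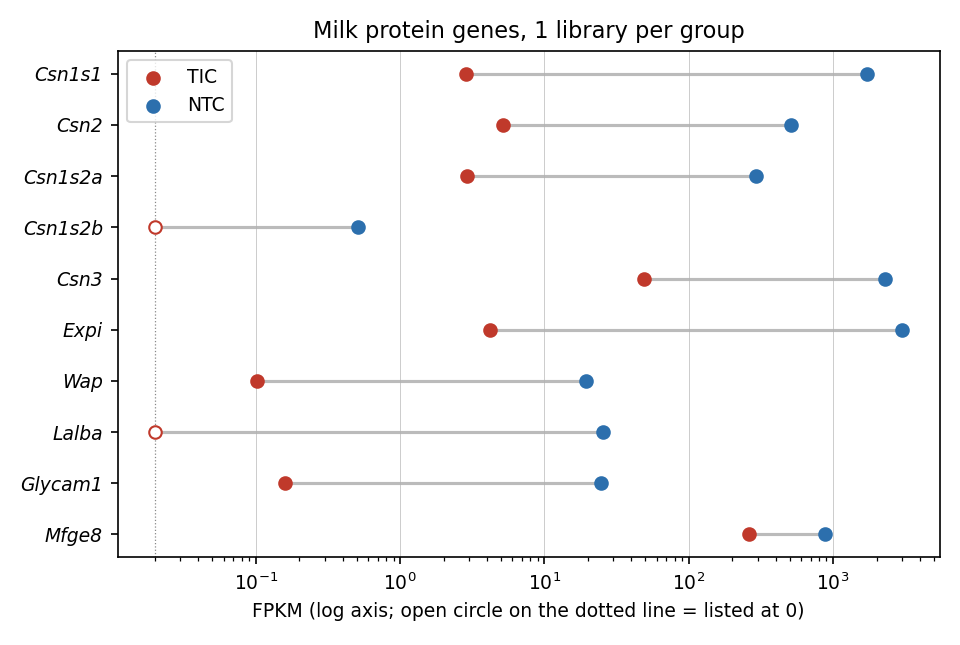
Level of each milk protein gene in TIC (red) and NTC (blue) in FPKM on a log axis, 1 library per group; open circles on the dotted line mark genes listed at 0. Every red point lies left of its blue point, with the shortest line for Mfge8 (261 against 873 FPKM) and long ones for Csn1s1 (2.85 against 1719 FPKM) and Expi (4.20 against 3019.8 FPKM).

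The 4 caseins with more than traces of RNA were all among the abundant transcripts of NTC. Csn1s1 (alpha s1-casein, chromosome 5, 88095249 to 88111599, build mm9) had 2.85 FPKM in TIC and 1719 FPKM in NTC. It ranked 9989th of all genes by level in TIC and 14th in NTC, and its log2 ratio of -8.80 was the 4th lowest of the 12004. Csn2 (beta-casein, 88121649 to 88128446) had 5.20 FPKM in TIC and 512 FPKM in NTC, a log2 ratio of -6.37.

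Csn1s2a (an alpha s2-casein, 88203592 to 88217822) had 2.91 FPKM in TIC and 291 FPKM in NTC, a log2 ratio of -6.22. The TIC level was 1.00% of the NTC level for Csn1s2a and 1.02% for Csn2, whereas it was 0.166% for Csn1s1. Csn3 (kappa-casein, 88354658 to 88361289) was the casein with the highest level in both libraries, at 48.9 FPKM in TIC and 2277 FPKM in NTC. Its log2 ratio was -5.51, and its TIC level was 2.15% of its NTC level, the highest share among the 4. Csn3 ranked 1295th by level in TIC and 9th in NTC.

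Csn1s2b (the second alpha s2-casein, 88237147 to 88253446) was not measured. Its level was 0 in TIC and 0.513 FPKM in NTC, and the NTC value by the depth estimate and annotated transcript lengths stands for 6.95 to 18.5 reads. The low TIC values of the others rest on few reads as well, about 25.9 to 84.6 for Csn1s1, 46.5 to 56.2 for Csn1s2a and 78.8 to 145 for Csn2, but on 1020 to 1640 for Csn3. These read numbers cover counting only, and PCR copies are among them.

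The make-up of casein RNA differed between the libraries as well as its amount. Csn3 held 81.7% of the summed casein FPKM in TIC and 47.5% in NTC, and Csn1s1 held 4.77% in TIC and 35.8% in NTC. Csn2 held 8.68% in TIC and 10.7% in NTC, and Csn1s2a 4.86% in TIC and 6.06% in NTC. Csn1s1 stood at 0.549 times the level of Csn2 in TIC and at 3.36 times that level in NTC. The level of Csn2 over Csn1s2a was nearly alike, 1.79 in TIC and 1.76 in NTC. How much these shares vary between libraries of 1 kind is not known from these data.

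**Figure D2:**
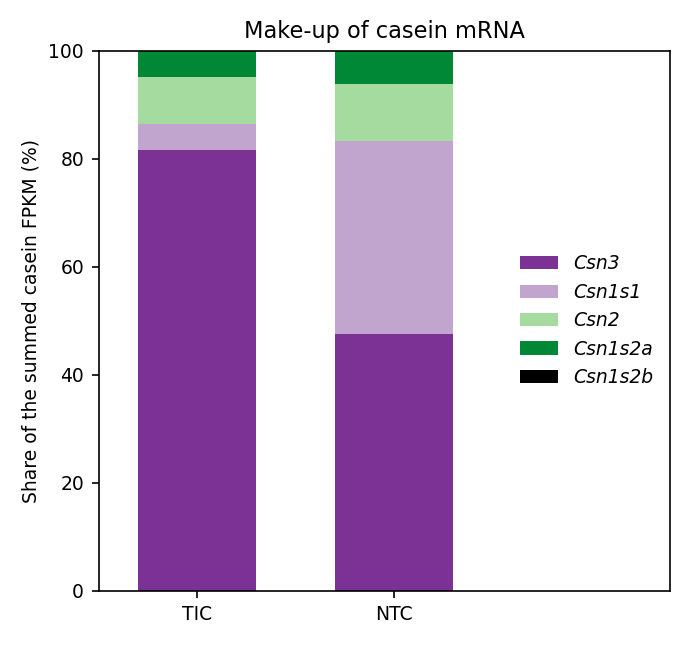
Share of the summed casein FPKM held by each casein gene, as percent, in the TIC bar (sum of 59.9 FPKM) and the NTC bar (sum of 4799 FPKM). Csn3 takes 81.7% in TIC and 47.5% in NTC, and Csn1s1 takes 4.77% in TIC and 35.8% in NTC.

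The caseins lie together in 266 kb of chromosome 5 (88095249 to 88361289), with 3 other genes between them. None of those 3 was near the level of the 4 abundant caseins. Odam, which encodes a protein of tooth enamel, lies 32.9 kb from Csn3 and had 0.395 FPKM in TIC and 0.0540 FPKM in NTC. The other two are a clone listed at 0 in TIC with 0.164 FPKM in NTC and a predicted gene listed at 0 in both. On the side of Csn1s1, the sulphotransferase gene Sult1e1 was listed at 0 in both libraries, and Sult1d1 was listed at 0 in TIC, against 0.155 FPKM in NTC. Beyond Csn3, Smr3a, a gene of a salivary protein, was at 1.19 FPKM in TIC, against 0 in NTC. The difference in the locus was thus seen at 4 casein genes, while Csn1s2b in their midst was near 0 in both libraries.

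**Figure D3:**
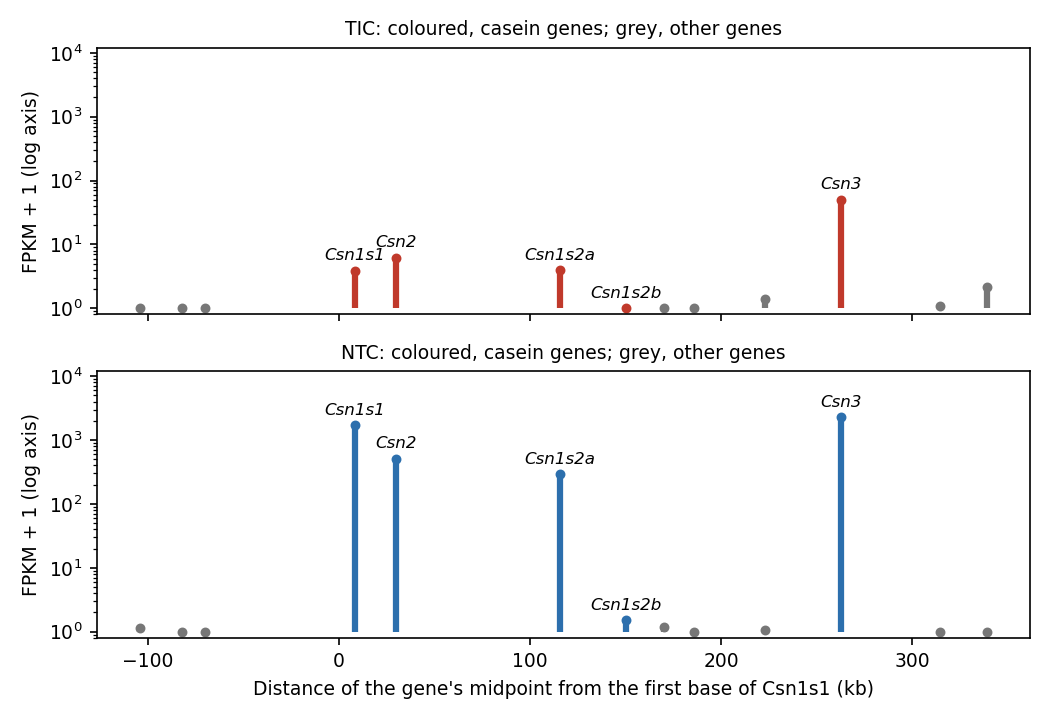
FPKM + 1 on a log axis for each gene of the casein locus, placed by the distance of its midpoint from the first base of Csn1s1 in kb, with TIC above and NTC below. Stems of Csn1s1, Csn2, Csn1s2a and Csn3 are tall in NTC (291 to 2277 FPKM) and short in TIC (2.85 to 48.9 FPKM), and the other genes lie near the baseline in both.

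Among the whey genes, Expi differed the most. Expi, now called Wfdc18, encodes a secreted protein with a WAP-type 4-disulphide core (chromosome 11, 83522506 to 83524862). It had 4.20 FPKM in TIC and 3019.8 FPKM in NTC, where it was the 6th highest gene. Its log2 ratio of -9.18 was the 2nd lowest of all measured genes, and the TIC level was 0.139% of the NTC level. Wap, the major whey protein of mouse milk (chromosome 11, 6535486 to 6538652), had 0.103 FPKM in TIC and 19.4 FPKM in NTC. Expi was thus 40.9 times the level of Wap in TIC and 155 times in NTC. The TIC value of Wap stands for about 1.19 reads, so the size of its difference is not resolved by this depth.

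Lalba encodes alpha-lactalbumin, the partner with which a galactosyltransferase makes lactose (chromosome 15, 98310831 to 98313114). It was listed at 0 in TIC, against 25.5 FPKM in NTC, and no ratio is given against a 0. Glycam1, a mucin-like glycoprotein of milk that lymph node vessels also make (chromosome 15, 103393193 to 103395509), had 0.160 FPKM in TIC, about 1.78 to 2.15 reads, and 24.8 FPKM in NTC. Lalba, Glycam1 and Wap thus lay between 19.4 and 25.5 FPKM in NTC, while Csn2 stood at 20.1 times the level of Lalba and 26.3 times that of Wap in that library.

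Mfge8 had the smallest difference among the measured genes. It encodes lactadherin, which bridges phosphatidylserine on membranes and dying cells to integrins on the cell that takes them up (chromosome 7, 86278654 to 86293946). Its level was 261 FPKM in TIC and 873 FPKM in NTC, a log2 ratio of -1.74, and the TIC level was 29.9% of the NTC level. Mfge8 was the highest of the 10 in TIC, where it ranked 150th of all genes, and the 4th highest of the 10 in NTC, where it ranked 35th. The order of the genes by level therefore differed between the libraries. In TIC it ran Mfge8, Csn3, Csn2, Expi, Csn1s2a, Csn1s1, Glycam1 and Wap, and in NTC Expi, Csn3, Csn1s1, Mfge8, Csn2, Csn1s2a, Lalba, Glycam1, Wap and Csn1s2b. With 1 library each, it cannot be said which neighbours in these orders differ beyond their spread.

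Few genes beside the milk protein genes were measured. Of 36 genes within 100 kb of any of the 10, 6 were measured, with a median log2 ratio of -0.03. None of the 6 was at least 2-fold lower in TIC and 1 was higher, against 13.8% and 14.6% of all measured genes. Counts this small cannot be told from those shares. All 6 lay near Wap, Lalba, Expi or Mfge8, and no gene near a casein or Glycam1 was measured. Wap lies 9.42 kb from Tbrg4, which had 23.1 FPKM in TIC and 36.4 FPKM in NTC, and 11.5 kb from Ramp3, which was at 0.186 FPKM in TIC, against 0 in NTC. Ccm2, also near Wap, had 16.5 FPKM in TIC and 17.3 FPKM in NTC. Near Lalba, the cyclin gene Ccnt1 had 43.5 FPKM in TIC and 43.3 FPKM in NTC. Near Expi, Heatr6 had 8.59 FPKM in TIC and 13.3 FPKM in NTC. The 1 neighbour at least 2-fold higher was Hapln3, a link protein of the matrix 2.75 kb from Mfge8, with 6.66 FPKM in TIC and 0.317 FPKM in NTC. The genes nearest to Glycam1, Ppp1r1a and Pde1b, were at 0.204 FPKM or less in both libraries.

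The regulators of milk genes were mixed in direction. Of 26 listed, 24 were measured, and their median log2 ratio was 0.02. Lower in TIC by 2-fold or more were 9 and higher 3, against 13.8% and 14.6% of all measured genes. Prlr, Elf5 and Ehf, below 1 FPKM in TIC, counted as measured through NTC alone and had to differ. Among 5 measured receptors, the prolactin receptor Prlr was the 1 at least 2-fold lower, with 0.0313 FPKM in TIC and 38.0 FPKM in NTC. The growth hormone receptor Ghr had 9.13 FPKM in TIC and 18.7 FPKM in NTC. Its log2 ratio of -0.96 fell just within 2-fold only through the added 1. The glucocorticoid receptor Nr3c1 had 17.5 FPKM in TIC and 17.3 FPKM in NTC, and the insulin receptor Insr 16.2 FPKM in TIC and 14.9 FPKM in NTC. Igf1r, the receptor of insulin-like growth factor, had 49.0 FPKM in TIC and 18.4 FPKM in NTC. Both kinases, Jak2 (16.3 FPKM in TIC, 11.6 FPKM in NTC) and Akt1 (64.0 FPKM in TIC, 51.6 FPKM in NTC), were within 2-fold.

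Of 11 transcription factors, 7 were lower in TIC by 2-fold or more and none was higher by as much. Over all measured genes these shares were 13.8% and 14.6%. Elf5, an ETS factor that alveolar cells need to form, had 0.363 FPKM in TIC and 295 FPKM in NTC, and its relative Ehf had 0.683 FPKM in TIC and 261 FPKM in NTC. Stat5a had 11.0 FPKM in TIC and 83.4 FPKM in NTC, a log2 ratio of -2.81, and Stat5b had 7.77 FPKM in TIC and 29.8 FPKM in NTC. The remaining 3 of the 7 were Id2 (7.26 FPKM in TIC, 81.1 FPKM in NTC), the luminal factor Gata3 (27.2 FPKM in TIC, 114 FPKM in NTC) and Cebpb (16.1 FPKM in TIC, 34.4 FPKM in NTC). Cebpb had a log2 ratio of -1.05, near the 2-fold limit. The nuclear factor I genes Nfib (178 FPKM in TIC, 158 FPKM in NTC) and Nfia (41.7 FPKM in TIC, 35.2 FPKM in NTC) were within 2-fold. So were Pou2f1, which encodes the octamer factor Oct1 (16.9 FPKM in TIC, 16.6 FPKM in NTC), and Yy1 (22.2 FPKM in TIC, 24.9 FPKM in NTC).

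Inhibitors of the pathway differed among themselves, 2 of 6 being higher in TIC by 2-fold or more and 1 being lower. Over all measured genes these shares were 14.6% and 13.8%, and counts this small cannot be told from them. Caveolin 1 (Cav1), which restrains JAK2 in mouse mammary cells, had 97.8 FPKM in TIC and 4.11 FPKM in NTC. Socs3, a feedback inhibitor of cytokine receptors, had 142 FPKM in TIC and 30.3 FPKM in NTC. Cish, a feedback gene that STAT5 switches on, had 9.77 FPKM in TIC and 25.8 FPKM in NTC. Socs2 (8.96 FPKM in TIC, 7.92 FPKM in NTC), Bcl6 (21.5 FPKM in TIC, 14.6 FPKM in NTC) and Ptpn1 (17.5 FPKM in TIC, 15.8 FPKM in NTC) were within 2-fold. Erbb4 and Socs1 had a mean below 1 FPKM.

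**Figure D4:**
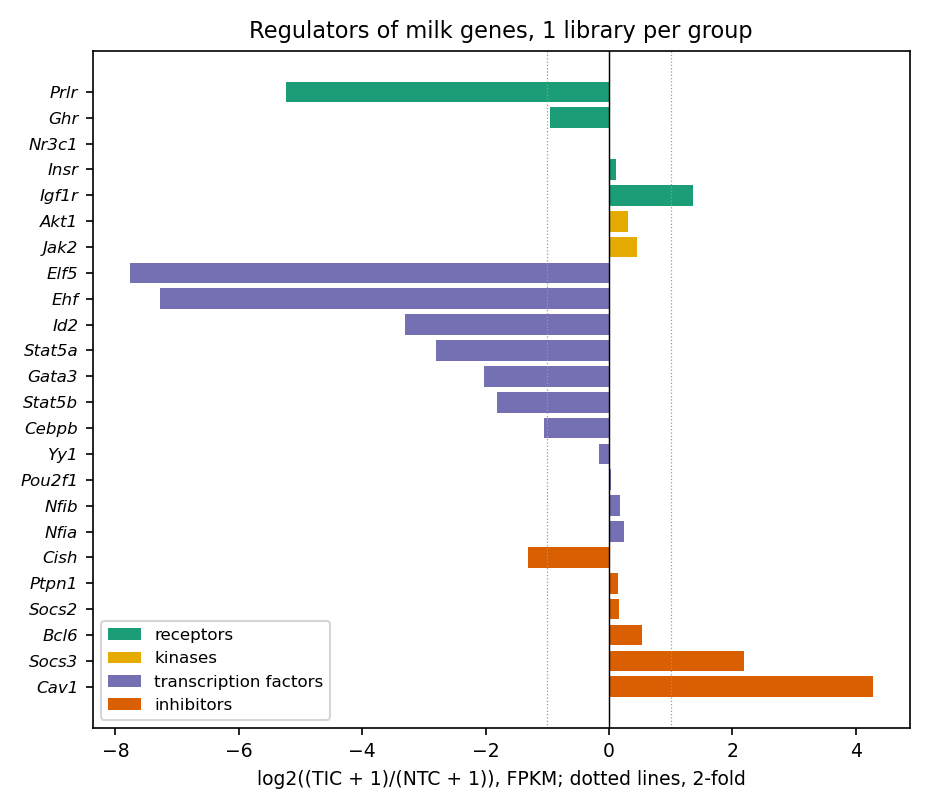
Log2((TIC + 1)/(NTC + 1)) of FPKM for the 24 measured regulators of milk genes, ordered within receptors, kinases, transcription factors and inhibitors, with dotted lines at 2-fold. Bars of Elf5, Ehf and Prlr reach below -5 and that of Cav1 reaches 4.27, while Nr3c1, Pou2f1 and Yy1 lie near 0.

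Other proteins of milk differed much as the caseins and whey genes did. Of 24 listed, 19 were measured, with a median log2 ratio of -5.16, and 5, some of them of the fat globule, were below 1 FPKM in both libraries. Lower in TIC by 2-fold or more were 17 and higher 2, against 13.8% and 14.6% of all measured genes. Genes below 1 FPKM in TIC, such as Btn1a1, Muc1 and Ltf, counted as measured through NTC alone, and Rnase4 and Pthlh through TIC alone. Such genes had to differ, so the counts describe the list without serving as a test. All 5 measured genes of the milk fat globule were lower, among them Btn1a1, butyrophilin, with 0.194 FPKM in TIC and 200.3 FPKM in NTC, and the mucin gene Muc1 with 0.0246 FPKM in TIC and 39.9 FPKM in NTC. Of the milk enzymes, the lipase gene Cel had 1.88 FPKM in TIC and 668 FPKM in NTC. The iron-binding proteins were lower too: lactoferrin (Ltf) had 0.194 FPKM in TIC and 49.3 FPKM in NTC, and transferrin (Trf) had 47.3 FPKM in TIC and 3476 FPKM in NTC. Clu, which encodes the secreted chaperone clusterin, had 2.38 FPKM in TIC and 288 FPKM in NTC. The 2 exceptions were the ribonuclease gene Rnase4 (140 FPKM in TIC, 0.777 FPKM in NTC) and Pthlh, the parathyroid hormone-like hormone that mobilises calcium for milk (28.7 FPKM in TIC, 0.0707 FPKM in NTC).

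Genes that serve the making of caseins and lactose differed less than the caseins themselves. Of 17 measured genes of casein phosphorylation, glycosylation, folding and calcium supply, 7 were lower in TIC by 2-fold or more and 1 was higher. Over all measured genes these shares were 13.8% and 14.6%. The median log2 ratio of the 17 was -0.44. Slc34a2 and Atp2c2, below 1 FPKM in TIC, counted as measured through NTC alone and had to differ. Fam20c, the Golgi kinase that phosphorylates caseins, had 2.75 FPKM in TIC and 13.9 FPKM in NTC, and its partner Fam20a had 35.2 FPKM in TIC and 139 FPKM in NTC. The phosphate carrier Slc34a2 had 0.0134 FPKM in TIC and 10.3 FPKM in NTC, and the secretory pathway calcium pump Atp2c2 had 0.219 FPKM in TIC and 10.3 FPKM in NTC. The folding helpers of the endoplasmic reticulum were within 2-fold, for example Hspa5 with 445 FPKM in TIC and 429 FPKM in NTC and P4hb with 264 FPKM in TIC and 290.5 FPKM in NTC. Galnt2, which starts O-glycan chains, was the higher one, with 52.4 FPKM in TIC and 12.0 FPKM in NTC.

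For lactose, 1 of 12 measured genes was at least 2-fold lower in TIC and none was higher by as much, the median log2 ratio being -0.33. Over all measured genes the shares were 13.8% lower and 14.6% higher, and counts this small cannot be told from them. B4galt1, the galactosyltransferase that alpha-lactalbumin turns to lactose synthesis, had 69.0 FPKM in TIC and 104 FPKM in NTC, while Lalba itself was listed at 0 in TIC. Ugp2, which makes UDP-glucose, had 13.4 FPKM in TIC and 30.9 FPKM in NTC, and the glucose carrier Slc2a1 had 138 FPKM in TIC and 86.4 FPKM in NTC.

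Relatives of the whey genes were mostly at or near 0. Of 22 genes found with a WAP domain or grouped with them by name, besides Wap and Expi, 14 were listed at 0 in both libraries and 4 were measured. Wfdc3 had 0.0694 FPKM in TIC and 51.1 FPKM in NTC, above the level of Wap in NTC, and Wfdc12 was listed at 0 in TIC, against 10.1 FPKM in NTC. The protease inhibitor Slpi had 6.46 FPKM in TIC and 17.8 FPKM in NTC, and Wfdc2 had 15.2 FPKM in TIC and 24.0 FPKM in NTC. Lalba arose from a lysozyme gene, and of 7 lysozyme genes 2 were measured. Lyz2 had 1.56 FPKM in TIC and 0.727 FPKM in NTC, and Lyzl4 was listed at 0 in TIC, against 3.24 FPKM in NTC.

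The partners of Mfge8 were mixed in direction. Of 13 measured, 4 were higher in TIC by 2-fold or more and 2 were lower, and their median log2 ratio was 0.52. Over all measured genes the shares were 14.6% higher and 13.8% lower, and the count of lower partners is near its share. The integrin subunits that bind lactadherin had higher values in TIC, with Itgav at 71.6 FPKM in TIC and 13.7 FPKM in NTC, and Itgb3 at 10.7 FPKM in TIC and 2.31 FPKM in NTC. Itgb5 had 21.4 FPKM in TIC and 10.6 FPKM in NTC. Its log2 ratio of 0.95 fell within 2-fold only through the added 1. Of the kinases that also recognise phosphatidylserine through bridging proteins, Axl had 27.6 FPKM in TIC and 0.553 FPKM in NTC, Tyro3 had 1.98 FPKM in TIC and 15.3 FPKM in NTC, and Mertk had 7.53 FPKM in TIC and 7.96 FPKM in NTC. The crosslinking enzyme Tgm2 had 6.89 FPKM in TIC and 93.7 FPKM in NTC.

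**Figure D5:**
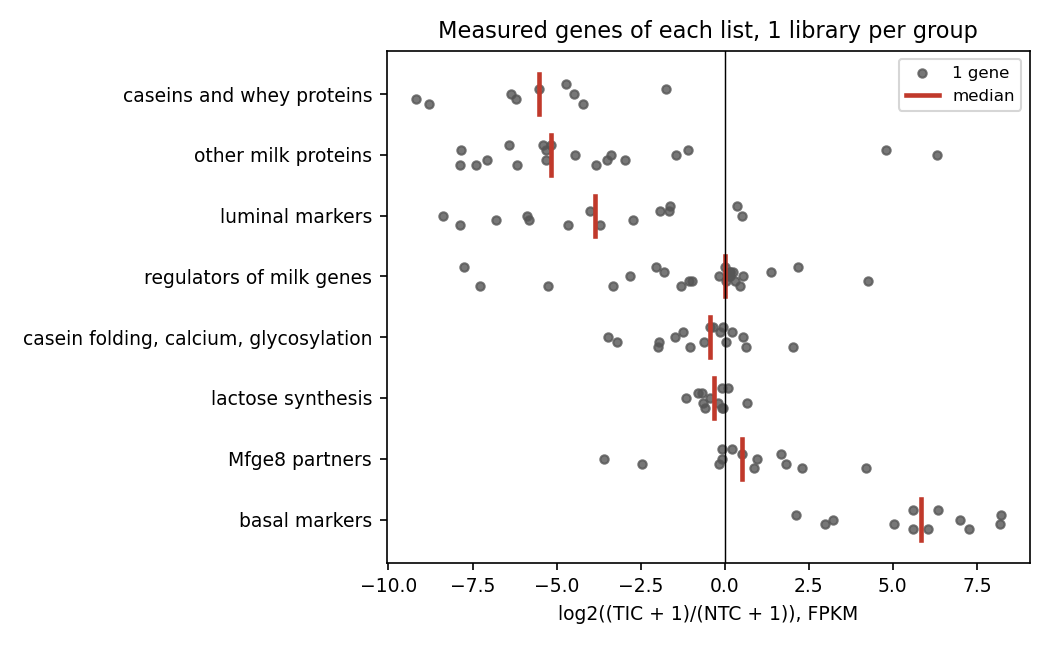
Log2((TIC + 1)/(NTC + 1)) of FPKM for each measured gene (grey points) of 8 lists, with the median of each list as a red line. The medians of the caseins and whey proteins (-5.51), other milk proteins (-5.16) and luminal markers (-3.86) lie far left, those of regulators (0.02) and lactose synthesis (-0.33) near 0, and that of basal markers (5.83) far right.

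The labels tie neither kind of cell to a marker or a layer. Markers of the mammary layers differed along with the milk protein genes. Of 14 luminal markers, 12 were lower in TIC by 2-fold or more, against 13.8% of all measured genes, and none was listed at 0. The 14 markers had a summed level of 581 FPKM in TIC and 4419 FPKM in NTC. They differed widely among themselves. The TIC level was 0.0659% of the NTC level for Cldn3, 0.218% for Krt19, 0.764% for Krt18 and 3.69% for Krt8, but 26.1% for Epcam, 31.6% for Kit and 32.4% for Cd24a, and it was above the NTC level, within 2-fold, for Aldh1a3 (42.8 FPKM in TIC, 32.8 FPKM in NTC) and Pgr (4.68 FPKM in TIC, 2.95 FPKM in NTC). All 12 basal markers were higher in TIC by 2-fold or more, against 14.6% of all measured genes. Their summed level was 4358 FPKM in TIC and 42.7 FPKM in NTC. Markers below 1 FPKM in 1 library, such as Cldn3 in TIC, counted as measured through the other library alone, so they had to differ. The part of these layers in the milk gene values was not tested.

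Markers of other cell types were low, apart from some fibroblast markers in TIC. Macrophages, which also make Mfge8, had a summed level of 10 markers of 1.19 FPKM in TIC and 1.66 FPKM in NTC, with Emr1, C1qa, C1qb, C1qc and Fcgr1 listed at 0 in both libraries. Ptprc, the pan-leukocyte gene, was also listed at 0 in both. The 10 other leukocyte markers summed to 0.0801 FPKM in TIC and 5.11 FPKM in NTC, the NTC sum being that of S100a8. Madcam1, a gene of the vessels that make Glycam1 in lymph nodes, was listed at 0 in both, and the 8 endothelial markers summed to 3.22 FPKM in TIC and 0.351 FPKM in NTC. Fibroblast and adipocyte markers were higher in TIC, at 171 FPKM in TIC and 2.45 FPKM in NTC, of which Dcn made 152 FPKM in TIC and 1.51 FPKM in NTC, while Adipoq was listed at 0 in both. Pdgfra (8.83 FPKM in TIC, 0.513 FPKM in NTC) and Col1a2 (9.56 FPKM in TIC, 0.0119 FPKM in NTC) were higher in TIC too. Both counted as measured through TIC alone and had to differ. Of the 10 markers in this list, 7 were below 1 FPKM in both libraries. The part of these cell types in the values of the milk protein genes was not tested.

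The genes with the pattern most like that of the milk protein genes were sought among 492 other genes whose mean reached 100 FPKM, by the distance of their log2 ratio over the 2 libraries from the median of -5.51. The nearest was the peptidase gene Anpep, with 14.2 FPKM in TIC and 635 FPKM in NTC and a log2 ratio of -5.38. It was followed by the milk fat globule mucin Muc15 (14.2 FPKM in TIC, 540 FPKM in NTC), Clca2 (5.27 FPKM in TIC, 201 FPKM in NTC), Trf and the luminal keratin gene Krt8 (11.6 FPKM in TIC, 314 FPKM in NTC).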

How the data were processed

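RNA was sequenced from 1 library of TIC and 1 of NTC. The deposited values are FPKM of each gene. Build mm9 and the tools Cuffdiff, Cufflinks, TopHat 1.4.0 and CASAVA 1.8.2 stand in the submitters' processing notes, with no role or setting. Per the labels' protocols, the RNA was amplified from a small input, which can change a gene's share of reads with its length and base composition. The sources used here do not say how reads shared by near-identical genes were assigned. Socs2 and Galnt2 stand in rows that carry several gene identifiers, so their values may combine genes.

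The locus heading names a human build, but of 20009 symbols also in the RefSeq table of GRCm38.p6, 19939 lay on the same chromosome of the mouse. Positions are given in mm9, counted from 1: with 1 added to the start the span equalled the RefSeq length for 6724 genes, and without it for 448.

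FPKM are not counts, so no count model was fitted. Ratios used a pseudocount of 1 FPKM and a minimum mean of 1 FPKM, with 2-fold as the limit for a count. Depth was taken from receptor genes with a locus below 1.5 kb, as the median of values times kb between 0.035 and 0.065 (23 genes in TIC, 39 in NTC). Read numbers use protein-coding transcript lengths of GENCODE M21. Expi was matched to RefSeq by its synonym. Of 192 entries in 13 gene lists, 191 were found, 3 of them by an older symbol. Genes named are the 10 milk protein genes, measured or well-known neighbours within 100 kb, all measured regulators, and in each other list up to 6 members that differed most to the side of the list's median and up to 3 on the opposite side, of which some are printed. Some genes named fall outside that rule and were chosen after their values were seen: Muc1, Ltf, Hspa5, P4hb, Mertk and the markers Epcam, Kit, Cd24a, Emr1, C1qa, C1qb, C1qc, Fcgr1, Ptprc, Madcam1 and Adipoq. The genes and lists were chosen with earlier results of these data known. Protein sequences were not used here. Python 3.11.15 with pandas 2.3.3 was used.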

Additional observations from a re-analysis of the deposited data

How the results depend on the processing

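No direction was reversed among 63 values under 7 alternatives, but none could have been. Changing the filter leaves each ratio as it is, and a pseudocount cannot change its sign. Centring takes off a median of -0.16 and rescaling shifts by at most 0.12, while Mfge8, with the smallest difference, stood at -1.74. Of the 10 milk protein genes, 9 stayed lower in TIC by 2-fold or more under every alternative. Their median log2 ratio of -5.51 was -6.59 with a pseudocount of 0.1 FPKM, -5.22 with one of 5 FPKM, -5.12 with no filter, -5.35 when centred on the median gene, -5.43 when rescaled to the same sum without the 100 highest genes and -5.39 when rescaled to the same upper quartile, which shifts the log2 ratio of a high gene by 0.12 and that of a low gene by less. Without Lalba, listed at 0 in TIC, it was -5.87 over 8 genes. With the pseudocount, log2 ratios moved between -8.00 and -2.61 for Lalba, -6.59 and -2.26 for Wap, and -6.58 and -2.53 for Glycam1. These genes were therefore not at least 16-fold lower under every alternative. The background counts moved more than the member count of 9. Genes at least 2-fold lower numbered 1658, or 921 with a pseudocount of 5 FPKM, and those higher 1749, or 1086 with that pseudocount and 1108 at a mean of at least 5 FPKM. List counts kept within 1.5 times in 174 of 182 cases. Many of the 174 were counts of 0 that stayed at 0, and some lists had few or no measured genes. The 174 therefore says little about how stable the counts are. The 1 lactose gene lower in TIC became 0 with a pseudocount of 5 FPKM or on centring, and the 1 lysozyme gene lower became 0 with a pseudocount of 5 FPKM or a mean of at least 5 FPKM. A pseudocount of 0.1 FPKM put 1 lysozyme gene higher. At a mean of at least 5 FPKM the leukocyte list had 0 lower and the fibroblast and adipocyte list 1 higher, against 3, and with no filter the endothelial list had 1 higher. These shifts follow from fewer or more genes passing the limits. No paired analysis was possible because each group has 1 library, and for the same reason none could be left out. Depth limits Wap and Glycam1 in TIC, which rest on 1.19 and at most 2.15 estimated reads, and amplification of a small input was not assessed.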
